A study of Homo sapiens with 12 samples.

Results

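Luminal breast transcription factors are described here through 9 genes chosen by name, of the 58735 genes listed in the expression tables. They were GATA3, FOXA1, ESR1, SPDEF, ELF3, TFAP2A, TFAP2B, TFAP2C and the long noncoding RNA gene DSCAM-AS1, found by their GENCODE 29 symbols and Ensembl identifiers, and all 9 were present. Poly-A RNA was sequenced from 4 groups of cultured human breast cancer cells with 3 libraries each. SK-BR-3 is an established HER2-amplified line. Its epirubicin-resistant derivative, SK/EPI, was obtained by long exposure to rising concentrations of epirubicin, an anthracycline that poisons topoisomerase II. The other groups were SK/EPI cells transfected for 48 h with an siRNA against BCRP, the drug efflux pump encoded by ABCG2 (SK/EPI-siBCRP) or a non-targeting one (SK/EPI-siNC). All groups thus go back to the SK-BR-3 line, 3 of the 4 are the resistant line, and the sources used here do not say whether that line is a single clone.

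GATA3 and FOXA1 are known as pioneer factors that open chromatin for the oestrogen receptor, the product of ESR1, and all of these are hallmarks of the luminal cells that line the milk ducts. SPDEF and ELF3 are ETS factors of secretory and surface epithelia, and the AP-2 factors TFAP2A, TFAP2B and TFAP2C bind GC-rich sites near many luminal genes, ERBB2 among them. DSCAM-AS1 is a noncoding RNA known from oestrogen receptor positive tumours, whereas SK-BR-3 is classed as oestrogen receptor negative.

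RefSeq promoter windows (GRCh38.p14) were found for 7 of the 9 genes, and 4 are printed, without any exonic bases. SPDEF, FOXA1 and TFAP2A are shown as the coding genes with the largest falls between the lines, and GATA3 as a gene whose level stayed close. Capitals mark matches to searched motifs.
SPDEF: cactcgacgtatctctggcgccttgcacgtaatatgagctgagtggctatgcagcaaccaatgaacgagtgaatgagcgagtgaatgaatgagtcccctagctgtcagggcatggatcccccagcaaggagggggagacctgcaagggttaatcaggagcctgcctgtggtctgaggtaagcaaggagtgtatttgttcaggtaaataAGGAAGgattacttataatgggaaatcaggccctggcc
FOXA1: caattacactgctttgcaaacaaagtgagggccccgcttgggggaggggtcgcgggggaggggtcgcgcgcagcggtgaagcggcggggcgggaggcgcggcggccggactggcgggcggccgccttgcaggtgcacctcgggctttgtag
TFAP2A: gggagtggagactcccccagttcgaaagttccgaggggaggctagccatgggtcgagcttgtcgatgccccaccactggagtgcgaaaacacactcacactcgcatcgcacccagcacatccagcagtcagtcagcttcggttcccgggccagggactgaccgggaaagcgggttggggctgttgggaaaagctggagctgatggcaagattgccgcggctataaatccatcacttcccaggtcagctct
GATA3: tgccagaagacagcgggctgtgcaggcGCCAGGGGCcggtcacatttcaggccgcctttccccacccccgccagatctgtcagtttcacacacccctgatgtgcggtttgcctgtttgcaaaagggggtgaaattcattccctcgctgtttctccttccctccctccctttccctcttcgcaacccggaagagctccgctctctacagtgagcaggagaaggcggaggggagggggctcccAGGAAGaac
The stretches were chr6:34556334-34556579 (minus strand), chr14:37595349-37595499 (minus), chr6:10419660-10419909 (minus, the first of 2 starts) and chr10:8045083-8045332 (plus, the first of 6 starts). The motifs searched on both strands in the 250 bases before each start were AP-2 (GCCNNNGGC, in 19.8% of all 35116 windows), forkhead (TGTTTAC, 2.98%), the letters AGATAA of GATA factors (9.17%), the letters AGGAAG of ETS factors (28.7%) and the palindromic oestrogen response element (0.0399%). The SPDEF window held 1 ETS match, 42 to 37 bases before the start. The window at the first GATA3 start held 1 AP-2 and 1 ETS match. In the windows of FOXA1, ELF3, TFAP2B and the first TFAP2A start none of these letters occurred, whereas the second TFAP2A start had 3 ETS matches. Of the other GATA3 starts, the fourth and the fifth had 1 AP-2 match each, and of the 6 ESR1 starts only the fourth had any, with 2 ETS matches.

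Between 15830381 and 20545811 reads per library fell on genes, and each deposited value was an FPKM, that is, fragments per kilobase of exonic sequence relative to sequencing depth. The targeted gene checked the labels, since ABCG2 stood at 33.0 ± 0.673 FPKM (SD, n = 3) in SK/EPI-siNC and 3.08 ± 0.345 FPKM in SK/EPI-siBCRP cells. Of 10 markers of breast carcinoma epithelium, 9 were above 1 FPKM in every group, and CDH1 had at most 3 reads in each library of the untransfected lines. The summed epithelial markers were at 4162 to 4399 FPKM in SK-BR-3 and 2714 to 2871 FPKM in SK/EPI cells. Summed fibroblast markers stayed between 1.42 and 2.56 FPKM in all groups. The summed leukocyte markers were at 1.99 to 2.44 FPKM in SK-BR-3 and 231 to 250 FPKM in SK/EPI cells, carried by CD74 and CD14, while the defining marker PTPRC had at most 3 reads per library in both lines. Of 6 endothelial markers only CDH5 was above 1 FPKM in any group, and their sum was at 6.70 to 7.01 FPKM in SK-BR-3 and 27.1 to 28.2 FPKM in SK/EPI cells. Mitochondrially encoded genes held 4.18% to 4.23% of reads in the parent and 5.10% to 5.38% in the resistant line. The part of these marker and mitochondrial differences in the results was not tested. Bulk RNA cannot tell fewer cells with a transcript from less transcript per cell.

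The first comparison asked how the resistant line differed from its parent. SPDEF, FOXA1, TFAP2A and DSCAM-AS1, which were all well expressed in SK-BR-3 cells, were downregulated between 9.93-fold and 181-fold in SK/EPI cells. TFAP2C and GATA3 were upregulated by 0.38 and 0.21 and ELF3 was downregulated by 0.13 on the log2 scale, so the luminal factors did not move together. ESR1 and TFAP2B were near the limit of detection in both lines. All 9 genes passed the filter on low reads and an adjusted p-value under 0.05 (limma on log2(FPKM + 1), Benjamini-Hochberg over 15823 genes), 3 upregulated and 6 downregulated. That count says little by itself, since 74.9% of all tested genes were called, 37.9% higher and 37% lower. The groups did not overlap for any of the 9, as for 77.7% of all tested genes. TFAP2B and DSCAM-AS1 passed the filter only with the help of SK-BR-3 libraries, and ESR1 only through SK/EPI libraries. For TFAP2B and ESR1, low reads in the other line were thus partly built into their being tested. Their calls and lack of overlap are no separate support. A called change of 1 or more on the log2 scale was found for 4 of the 9 genes and 14.4% of all tested genes. A called fall of 3 or more was found for 4 of the 9 genes and for 0.398% of all tested genes. The cut at 3 was not a planned threshold and was applied to this comparison only. The FOXA1 change of -3.15 only just passes it, so this contrast depends on where the cut was set. The 9 genes were also chosen with earlier results known, so these contrasts are descriptions and not tests. Nothing says that same-group libraries came from separate cultures beyond their preparation in triplicate, so the p-values measure the spread between these libraries, which may be technical.

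**Figure D1:**
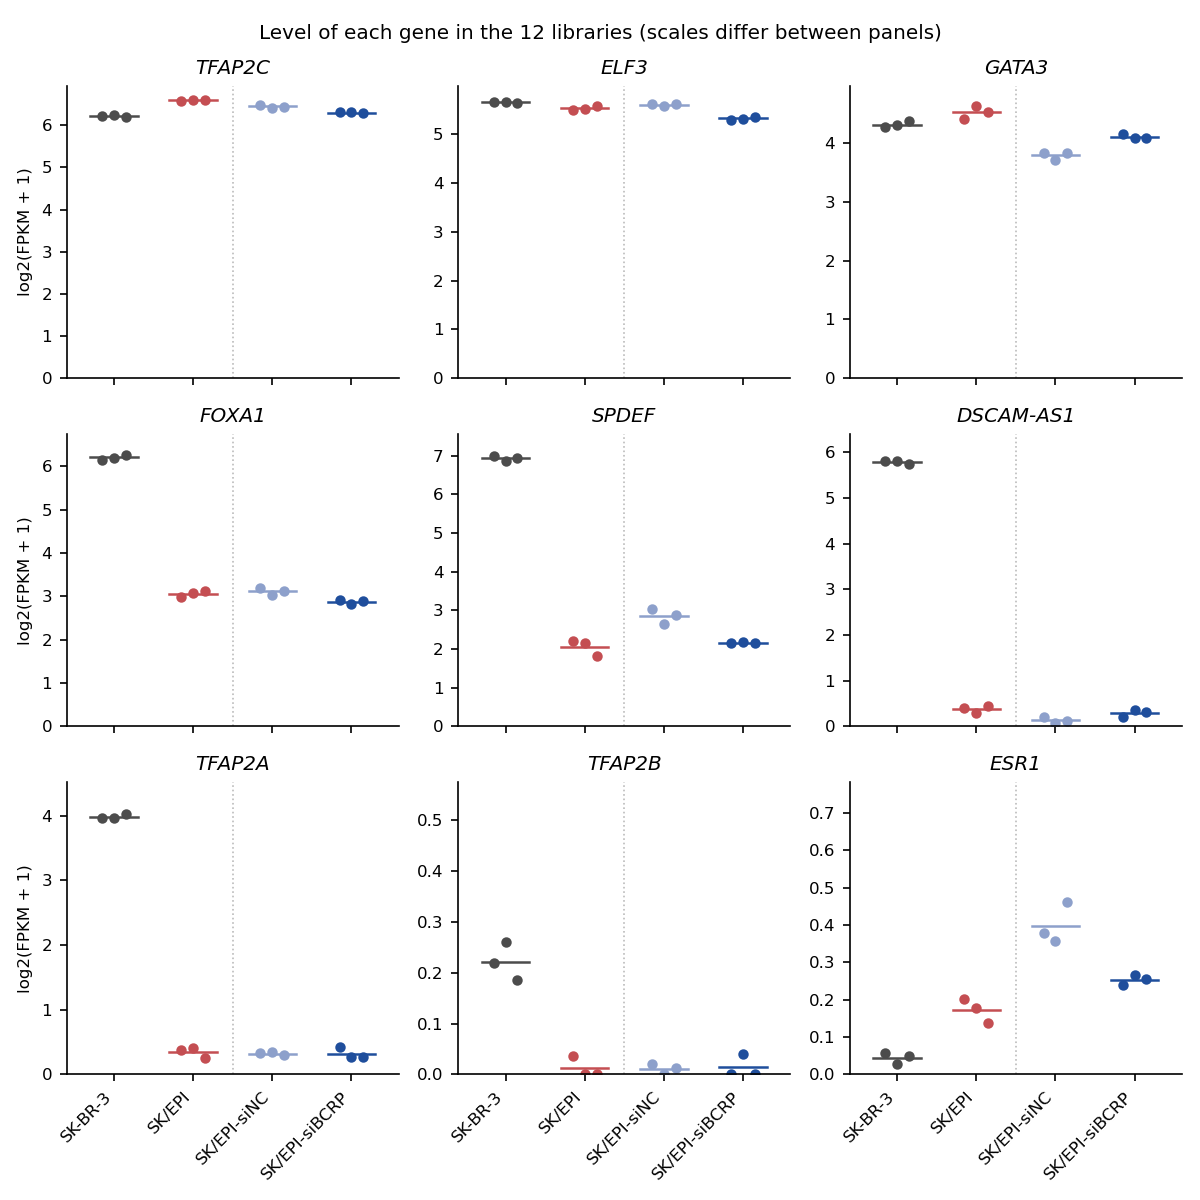
Level of each of the 9 genes as log2(FPKM + 1) (y axis, scales differ between panels) in the 12 libraries by group, with points for libraries, bars for group means, and a dotted line between the separately normalised tables. FOXA1, SPDEF, DSCAM-AS1 and TFAP2A stood far higher in the 3 SK-BR-3 libraries than in the other 9, while TFAP2C and ELF3 stayed within a narrow range and GATA3 ran from 12.1 to 23.8 FPKM.

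SPDEF (ENSG00000124664, chromosome 6 minus strand, 34537802 to 34556333), a driver of secretory and goblet cell programmes, was at 127, 116 and 122 FPKM in the SK-BR-3 libraries. In the SK/EPI libraries it was at 3.63, 3.44 and 2.51 FPKM, from 90 to 136 reads. The most abundant of the 9 transcripts in the parent had thus become a minor one in every resistant library. Its log2 fold change was -4.88 (SE 0.10, adjusted p = 4.87e-09 from limma), the eighth lowest of the 15823 genes, and the mean FPKM was 38.1-fold lower.

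FOXA1 (ENSG00000129514, chromosome 14 minus strand, 37589984 to 37596059), the forkhead pioneer factor, was at 70.3, 72.2 and 76.3 FPKM in SK-BR-3 cells. It was at 6.88, 7.43 and 7.71 FPKM in SK/EPI cells, with at least 535 reads in each library. No SK/EPI library came near the parental range, yet FOXA1 mRNA remained well above detection. The log2 fold change was -3.15 (SE 0.05, adjusted p = 1.23e-09 from limma), rank 52 from the lowest, for a 9.93-fold lower mean. Its paralogues FOXA2 and FOXA3, named after their values were seen, had at most 3 reads per library in both lines.

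Among the AP-2 factors, TFAP2A was downregulated while TFAP2C was upregulated. TFAP2A (ENSG00000137203, chromosome 6 minus strand, 10393186 to 10419659), which serves neural crest and epidermis as well as breast, was at 14.6, 14.6 and 15.3 FPKM in SK-BR-3 cells. In SK/EPI cells it was at 0.296, 0.328 and 0.194 FPKM, from 30 to 49 reads. Its 54.5-fold fall left TFAP2A at a trace level in all 3 resistant libraries. The log2 fold change was -3.64 (SE 0.06, adjusted p = 1.73e-09 from limma), rank 35 from the lowest, and -5.70 when recovered reads were fitted with voom, which adds a smaller constant to low genes.

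TFAP2C (ENSG00000087510, chromosome 20 plus strand, 56629302 to 56639283), the AP-2 factor most tied to luminal tumours and to ERBB2, was at 73.8, 74.8 and 72.8 FPKM in SK-BR-3 cells and at 95.0, 96.2 and 96.9 FPKM in SK/EPI cells. The difference was small but far outside the spread of either group (log2 fold change 0.38, SE 0.03, adjusted p = 7.33e-06 from limma). TFAP2B (ENSG00000008196, chromosome 6 plus strand, 50818723 to 50847613), an AP-2 factor of kidney and neural crest, had 16, 22 and 16 reads in the SK-BR-3 libraries and 3, 0 and 0 in the SK/EPI libraries. It was therefore at least 6.40-fold lower against a floor of 3 reads per library, a bound that covers counting error only (log2 fold change -0.21, SE 0.04, adjusted p = 0.000893 from limma, and -4.26 with voom). TFAP2B passed the filter only through its SK-BR-3 reads, so this p-value is no separate support. Of the other family members, named after their values were seen, TFAP2E was at 0.200 FPKM in SK-BR-3 and 0.715 FPKM in SK/EPI cells, and TFAP2D had at most 3 reads per library.

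As a share of the summed FPKM of the 3 listed AP-2 genes, TFAP2A made up 16.5%, 16.3% and 17.3% in the SK-BR-3 libraries, a mean of 16.7% ± 0.546 (SD, n = 3). In SK/EPI cells its share was 0.283% ± 0.0740 (SD, n = 3), and TFAP2C made up 99.6% to 99.8% in the 9 resistant libraries, with or without siRNA. The groups did not overlap, and the exact two-sided permutation test gave p = 0.1, the smallest that 3 against 3 libraries allow. Counted in reads, which are not corrected for exon length, the TFAP2A share was 34.8% to 36.5% in SK-BR-3 and 0.547% to 0.929% in SK/EPI cells. The summed FPKM of these 3 genes, without TFAP2E, was 88.8 ± 0.724 in SK-BR-3 and 96.3 ± 0.928 in SK/EPI cells, with no overlap. Their total was thus slightly higher in SK/EPI cells, where TFAP2C made up nearly all of it.

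**Figure D2:**
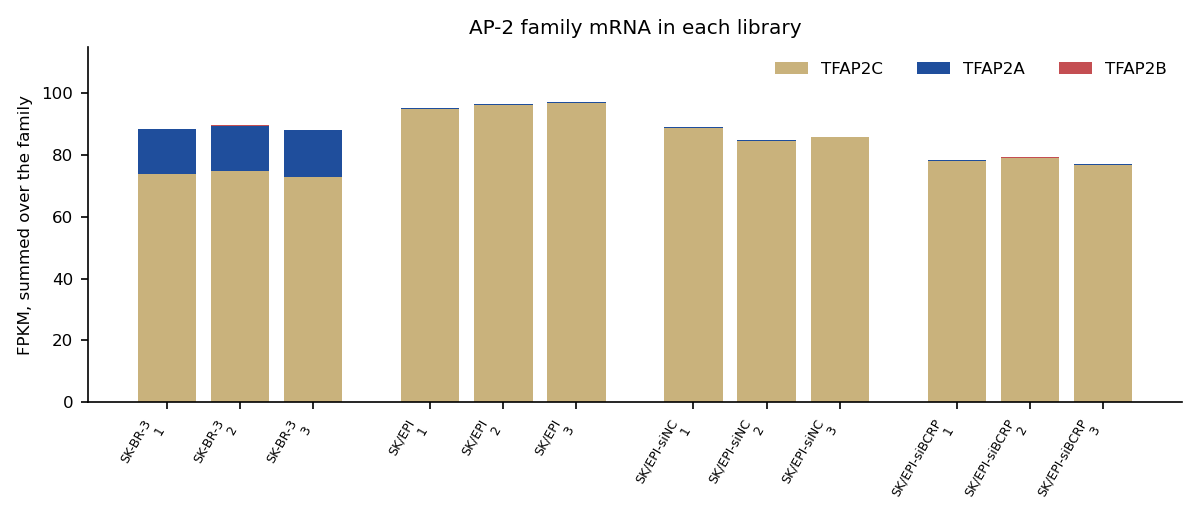
Stacked bars of the FPKM (y axis) of TFAP2C, TFAP2A and TFAP2B in each of the 12 libraries (x axis, group and replicate). TFAP2A is visible as a share of 16.3% to 17.3% in the SK-BR-3 bars, and in the other 9 bars it is a thin line or is not visible.

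GATA3 (ENSG00000107485, chromosome 10 plus strand, 8045378 to 8075203), the zinc finger factor of luminal differentiation, was at 18.3, 18.9 and 19.8 FPKM in SK-BR-3 cells. It was at 20.3, 23.8 and 22.2 FPKM in SK/EPI cells, and the lowest resistant library lay just above the highest parental one. The log2 fold change was 0.21 (SE 0.06, adjusted p = 0.0118 from limma). ELF3 (ENSG00000163435, chromosome 1 plus strand, 202007945 to 202017188), an epithelium-restricted ETS factor, was at 50.1, 49.7 and 49.2 FPKM in SK-BR-3 and at 44.3, 44.9 and 46.8 FPKM in SK/EPI cells. Its fall of 0.13 on the log2 scale (SE 0.03, adjusted p = 0.00602 from limma) no longer passed after scaling without the mitochondrial chromosome (adjusted p = 0.0580) or with voom (adjusted p = 0.185). Over all alternatives its adjusted p-value ranged from 0.00218 to 0.185.

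ESR1 (ENSG00000091831, chromosome 6 plus strand, 151656691 to 152129619), which encodes oestrogen receptor alpha, had 9, 5 and 9 reads in the SK-BR-3 libraries, or 0.0409, 0.01998 and 0.0341 FPKM. In SK/EPI cells it had 41, 33 and 26 reads, or 0.151, 0.132 and 0.1002 FPKM. All SK/EPI libraries were above all SK-BR-3 libraries, at levels far below those of FOXA1 or GATA3 in the same cells. ESR1 passed the filter only through its SK/EPI reads, so its call is no separate support. The mean FPKM was 4.03-fold higher and the log2 fold change was 0.13 (SE 0.03, adjusted p = 0.00946 from limma), which the added constant of 1 compresses, against 2.08 with voom. ESR2, PGR, GREB1 and TFF1 were looked up after their values were seen. ESR2, the beta receptor, was at 0.0514 and 0.0819 FPKM in SK-BR-3 cells and SK/EPI cells (adjusted p = 0.284 from limma), and the classical oestrogen targets PGR and GREB1 had at most 3 reads per library in both lines. TFF1, another such target, had 11, 16 and 13 reads in SK-BR-3 and 2, 0 and 3 in SK/EPI cells (log2 fold change -1.04, adjusted p = 3.80e-05 from limma).

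DSCAM-AS1 (ENSG00000235123, chromosome 21 plus strand, 40383083 to 40385358) showed the largest change of the 9. It was at 54.9, 55.1 and 52.6 FPKM in SK-BR-3 cells, from 1541 to 1772 reads. In SK/EPI cells 11, 7 and 12 reads were left, or 0.317, 0.219 and 0.362 FPKM. A transcript slightly more abundant than ELF3 in the parent was thus barely detected in the resistant line, with a 181-fold lower mean. The log2 fold change was -5.41 (SE 0.05, adjusted p = 1.57e-10 from limma), the fifth lowest of all tested genes. DSCAM, the gene on the opposite strand, was at 0.0753 FPKM in SK-BR-3 cells and at least 4.04-fold lower in SK/EPI cells, but had too few reads to be tested.

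**Figure D3:**
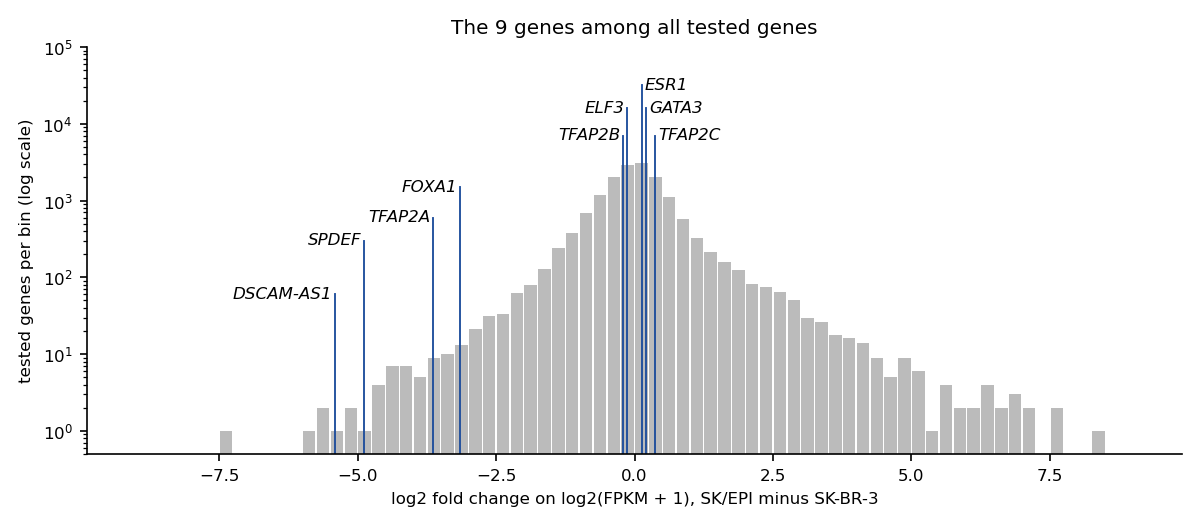
Histogram of the log2 fold changes of the 15823 tested genes, SK/EPI minus SK-BR-3 (x axis), with the number of genes per bin on a log scale (y axis). Lines mark the 9 genes, and the line heights carry no value. DSCAM-AS1, SPDEF, TFAP2A and FOXA1 lie in the sparse lower tail, and the other 5 lie near 0.

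The order of the transcripts by FPKM, which is per length, changed accordingly. In SK-BR-3 cells it ran SPDEF, TFAP2C, FOXA1, DSCAM-AS1, ELF3, GATA3, TFAP2A, TFAP2B and ESR1, and of all neighbours only TFAP2C and FOXA1 had overlapping ranges. In SK/EPI cells TFAP2C led at 96.0 FPKM, ELF3 followed at 45.3 and GATA3 at 22.1, then came FOXA1 at 7.34 and SPDEF at 3.19. DSCAM-AS1 and TFAP2A overlapped at 0.299 and 0.272 FPKM, ahead of ESR1 at 0.128 FPKM, and TFAP2B was last. TFAP2C, ELF3, GATA3, FOXA1 and SPDEF kept these first 5 places in both siRNA groups.

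Genes near or antisense to the 9 were measured as well, with 7 of 12 listed passing the filter. TFAP2A-AS1 fell with TFAP2A, from 1.82 to 0.136 FPKM (log2 fold change -1.30, adjusted p = 8.58e-06 from limma), and TFAP2A-AS2 fell from 0.852 to 0.224 FPKM (-0.59, adjusted p = 0.000343). TTC6, which overlaps the start of FOXA1 on the opposite strand, fell 12.9-fold from 2.16 to 0.167 FPKM (-1.44, adjusted p = 1.74e-07), and MIPOL1, also near FOXA1, fell from 0.270 to 0.117 FPKM (-0.18, adjusted p = 0.00188). The library kit keeps no strand, so reads of overlapping genes cannot be told apart. FOXA1 and TTC6 share only 16 exonic bases, 0.402% of those of FOXA1 and 0.191% of those of TTC6. TFAP2A shares 5.29% of its exonic bases with TFAP2A-AS1 and 11.4% with TFAP2A-AS2, which share 25.9% and 27.5% of theirs with it. ELF3 shares 9.23% with ELF3-AS1, which fell from 4.52 to 2.83 FPKM (-0.53, adjusted p = 3.41e-05). RBM38, downstream of TFAP2C on chromosome 20 but well apart from it (57391407 to 57409333), rose from 28.4 to 53.0 FPKM (0.88, adjusted p = 1.42e-06), and PACSIN1, next to SPDEF, rose from 2.01 to 3.68 FPKM (0.63, adjusted p = 2.61e-05) while SPDEF itself fell. GATA3-AS1 was too low to be tested and overlapped between the lines, and CCDC170 near ESR1 had at most 3 reads per library.

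The second comparison asked what BCRP silencing changed in SK/EPI cells. GATA3 was upregulated 1.26-fold, SPDEF was downregulated 1.80-fold, and ELF3, FOXA1 and TFAP2C were downregulated by 1.22-fold, 1.22-fold and 1.11-fold in SK/EPI-siBCRP compared with that in SK/EPI-siNC cells. SPDEF, FOXA1 and TFAP2C moved by less than between the lines and GATA3 and ELF3 by more, and none reached 1 on the log2 scale, as only 0.411% of all 16298 tested genes did. Of the 9 genes 7 passed the filter, and 1 was upregulated and 5 were downregulated where 19.4% and 18.7% of all tested genes were, 38.1% in all. The groups overlapped for TFAP2A alone of these 7, while they did not for 50.9% of all tested genes.

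SPDEF was at 7.15, 5.27 and 6.35 FPKM in SK/EPI-siNC and at 3.44, 3.53 and 3.43 FPKM in SK/EPI-siBCRP cells. Untreated SK/EPI cells, normalised separately, were at 3.19 ± 0.597 FPKM (SD, n = 3), near the silenced libraries. All control libraries were above all silenced ones, which lay close together (log2 fold change -0.69, SE 0.09, adjusted p = 0.000993 from limma, rank 185 from the lowest). GATA3 went the other way, with 13.3, 12.1 and 13.3 FPKM in the control and 17.0, 16.0 and 16.0 FPKM in the silenced libraries (0.32, SE 0.04, adjusted p = 0.00123). ELF3 was at 48.0, 47.1 and 48.3 FPKM in the control and at 38.5, 39.0 and 40.0 FPKM in the silenced libraries (-0.28, SE 0.02, adjusted p = 0.000100). It had the smallest adjusted p-value of the 7 with a modest change.

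FOXA1 was at 8.21, 7.24 and 7.77 FPKM in SK/EPI-siNC and at 6.61, 6.05 and 6.40 FPKM in SK/EPI-siBCRP cells (log2 fold change -0.25, SE 0.05, adjusted p = 0.00868 from limma). TFAP2C was at 88.8, 84.6 and 85.8 FPKM in the control and at 78.1, 79.0 and 76.8 FPKM in the silenced libraries (-0.15, SE 0.02, adjusted p = 0.00326). Neither gene's groups overlapped, and both moved by less than GATA3. TFAP2A was at 0.254, 0.267 and 0.233 FPKM in the control and at 0.342, 0.209 and 0.206 FPKM in the silenced libraries, and no difference was detectable (-0.00, SE 0.05, adjusted p = 0.998). Its share of the AP-2 sum was 0.290% ± 0.0222 and 0.322% ± 0.0975 (SD, n = 3, exact two-sided permutation p = 1, where the smallest possible is 0.1), and the family sum was 86.6 ± 2.16 and 78.2 ± 1.15 FPKM.

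ESR1 was at 0.301, 0.281 and 0.376 FPKM in SK/EPI-siNC cells, from 74 to 103 reads, and at 0.182, 0.202 and 0.194 FPKM in SK/EPI-siBCRP cells, from 49 to 63 reads. The groups did not overlap, and the mean was 1.66-fold lower (log2 fold change -0.14, SE 0.04, adjusted p = 0.0311 from limma, and -0.72 with voom). The call depended on the setting, with adjusted p-values from 0.00130 to 0.143 over all alternatives. It was lost without a filter on low genes (0.143), with the replicate number as a block (0.0611), and when any library other than SK/EPI-siNC replicate 2 was left out, with adjusted p = 0.0821, 0.0687 and 0.0740 without SK/EPI-siBCRP replicates 1, 2 and 3, and 0.0598 and 0.0878 without SK/EPI-siNC replicates 1 and 3. DSCAM-AS1 had 6, 2 and 3 reads in the control and 5, 11 and 8 in the silenced libraries, and TFAP2B 2, 0 and 1 against 0, 4 and 0, so neither was tested. Of the genes near the 9, RBM38 rose from 40.4 to 56.1 FPKM (0.46, adjusted p = 1.94e-05), ELF3-AS1 fell from 1.72 to 1.39 FPKM (-0.18, adjusted p = 0.0383), and the other 5 tested did not pass.

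**Figure D4:**
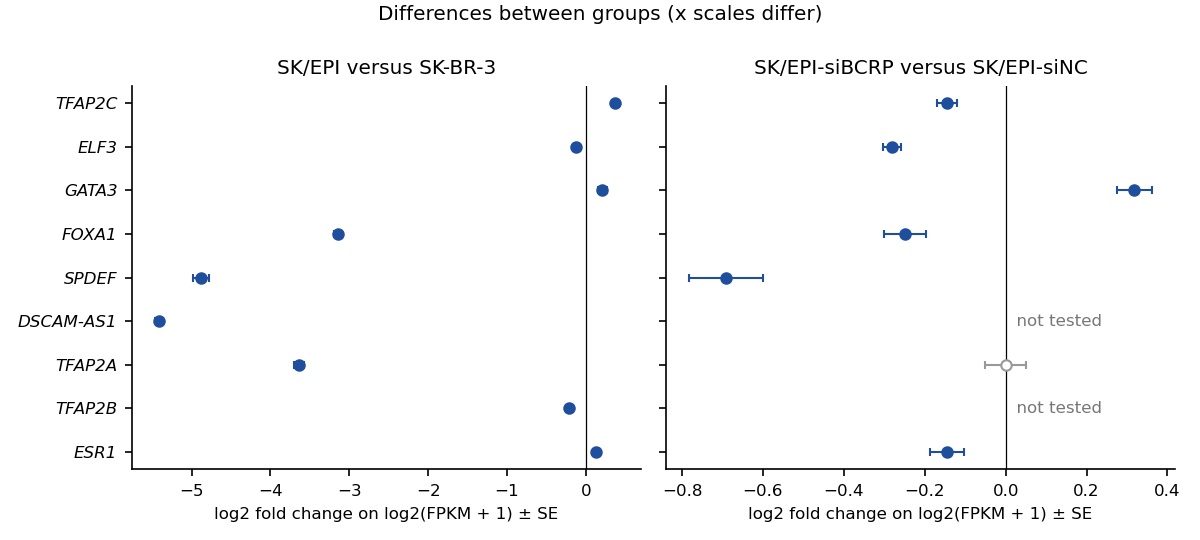
Log2 fold changes on log2(FPKM + 1) with SE bars (x axis, scales differ) of the 9 genes (y axis) for SK/EPI versus SK-BR-3 (left) and SK/EPI-siBCRP versus SK/EPI-siNC (right), with filled points for an adjusted p-value under 0.05. On the left 4 genes lie below -3, and on the right the 7 tested genes lie between -0.69 and 0.32, GATA3 alone clearly above 0.

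Untreated and control-transfected SK/EPI cells stand in separately normalised tables, so their values are set side by side without a test. GATA3 was at 22.1 ± 1.72 FPKM in SK/EPI and 12.9 ± 0.693 FPKM in SK/EPI-siNC cells, SPDEF at 3.19 ± 0.597 and 6.25 ± 0.942 FPKM, and ESR1 at 0.128 ± 0.0256 and 0.319 ± 0.0506 FPKM (SD, n = 3). FOXA1 stood at 7.34 ± 0.422 and 7.74 ± 0.487 FPKM and TFAP2A at 0.272 ± 0.0701 and 0.251 ± 0.0173 FPKM. In SK/EPI-siBCRP cells GATA3 was at 16.3 ± 0.548, SPDEF at 3.47 ± 0.0553 and ESR1 at 0.193 ± 0.0103 FPKM. Each of these lay from the SK/EPI-siNC value towards the untreated one. FOXA1, ELF3 and TFAP2C, at 6.35, 39.1 and 78.0 FPKM, were lower there than in SK/EPI and SK/EPI-siNC cells. How far the siRNA differences reflect the control transfection was not tested. Low FOXA1, SPDEF, TFAP2A and DSCAM-AS1 was thus measured in all 9 libraries of the resistant line.

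Other transcription factors of luminal breast epithelium moved in both directions between the lines. Of 20 tested, 8 were upregulated and 10 downregulated, where 37.9% and 37% of all tested genes were, and the median log2 fold change was -0.15 against 0.01 over all tested genes. TRPS1, a GATA-type repressor, fell 19.2-fold from 30.7 to 1.60 FPKM, XBP1, a secretory stress factor, from 161 to 25.3 FPKM, and CREB3L4 from 23.3 to 6.87 FPKM. EHF, the ETS factor closest to ELF3, rose from 6.08 to 39.6 FPKM, KLF5 from 4.98 to 29.1 FPKM, and AFF3 was at least 218-fold higher. Of 15 paralogues of the 9 genes tested, 6 rose and 6 fell (median 0.11), with ETS2 and ETS1 up by 0.70 and 0.68 and ETV1, ETV4 and GATA6 down by 1.04, 0.92 and 0.61 on the log2 scale.

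Of 21 tested oestrogen receptor target genes, 13 were downregulated and 7 upregulated, with a median of -0.37. As 74.9% of all tested genes were called, the counts in this and the next lists are descriptions, and no list was tested against the other genes. AGR2, a secretory protein disulfide isomerase, fell 27.8-fold from 64.8 to 2.33 FPKM and the carbonic anhydrase CA12 133-fold from 17.6 to 0.132 FPKM, whereas STC2 rose from 0.0458 to 5.56 FPKM, PDZK1 by 1.58 and SUSD3 by 1.24 on the log2 scale. Of 19 receptor coregulators, 10 rose and 6 fell (median 0.16), with NCOA2, PIAS1 and NCOA1 up by 0.98, 0.90 and 0.86 and CITED2 and MED1 down by 1.39 and 1.14. MED1 lies near ERBB2, and all 5 genes of the ERBB2 amplicon list were downregulated (median -1.56), ERBB2 itself from 659 ± 5.70 to 133 ± 4.04 FPKM (SD, n = 3).

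Of 20 luminal structural and secretory genes, 7 rose, among them KRT18, MUC1 and CLDN4 by 0.75, 0.79 and 0.74, and 9 fell, among them KRT19 and RAB25 by 1.69 and 2.51, with SCGB2A2 falling from 12.2 FPKM to 0 reads (median -0.09). Of 15 basal and myoepithelial genes, 9 rose and 5 fell (median 0.42), with KRT5 at 0.0277 and 7.50 FPKM, FOXC1 at 0.0939 and 7.00 FPKM and ITGA6 up by 2.03, against SOX9 at 5.91 and 0.0449 FPKM, ITGB4 down by 1.14 and TRIM29 down by 0.71. Only 3 of 12 mesenchymal transcription factors were high enough to test, of which 2 rose, SNAI1 by 1.54. TCF4, named after its value was seen, fell from 0.280 to 0.118 FPKM (-0.19).

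**Figure D5:**
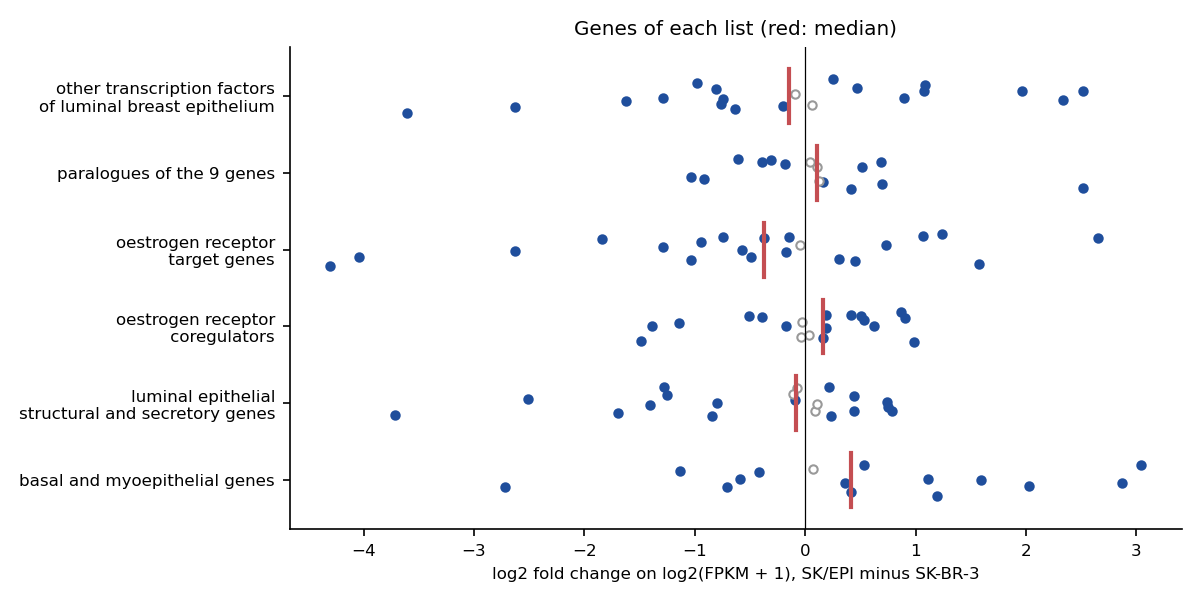
Log2 fold changes, SK/EPI minus SK-BR-3 (x axis), of the tested genes of 6 lists (y axis), with filled points for an adjusted p-value under 0.05 and a red bar at each list's median. Every list holds genes on both sides of 0, and the medians lie between -0.37 and 0.42.

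After BCRP silencing none of the tested listed genes changed by 1 or more in log2(FPKM + 1), a scale that understates changes of low genes. Ratios of mean FPKM could be larger. KRT17 was 2.71-fold higher, at 0.836 FPKM in SK/EPI-siNC and 2.26 FPKM in SK/EPI-siBCRP cells. The counts that follow stand beside 19.4% of all tested genes called higher and 18.7% called lower, 38.1% in all. Of 19 luminal factors tested, 5 rose and 8 fell (median -0.00, as over all tested genes), with MYB, AFF3 and TBX3 up by 0.61, 0.60 and 0.48 and GRHL1, TRPS1 and OVOL2 down by 0.54, 0.47 and 0.45. Of 16 oestrogen receptor target genes, 3 rose and 9 fell (median -0.11), with STC2 and SLC39A6 up by 0.53 and 0.13 beside MYB, and AGR2, NRIP1 and NAT1 down by 0.53, 0.42 and 0.30. Of 12 paralogues 3 rose (ETV4, ESRRA and ETS2, by 0.47, 0.35 and 0.22) and 3 fell (EHF, ELF1 and GATA2, by 0.33, 0.17 and 0.08). The 19 coregulators had 2 rises (PRMT1 and CARM1) and 6 falls (NCOA3 and CITED2 among them, by 0.25 and 0.24). Of 17 luminal structural genes 6 rose and 7 fell, with CLDN3 up by 0.22 and KRT19 down by 0.44, and of 14 basal genes 5 rose and 3 fell, with KRT17 and TRIM29 up by 0.83 and 0.50 and ITGA6 down by 0.50. None of the 3 mesenchymal factors tested was called, and 1 of 5 amplicon genes rose and 3 fell.

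Genes with the most similar pattern were found as those with the smallest Euclidean distance in log2(FPKM + 1), centred within each table, over the 12 libraries, among 15151 genes tested in both tables. Distances are a description and carry no test. For FOXA1 they were VTCN1 (0.206), MCUB (0.345) and CAPN2 (0.365), and for SPDEF they were GPR160 (0.878), AGR2 (0.906) and S100P (1.05). TFAP2A was closest to AZGP1 (0.266), PGM5 (0.295) and NPNT (0.332), and ESR1 to UVSSA (0.0776), TRA2A (0.0807) and KLHL3 (0.0840), whose short distances go with its small changes on this scale. AGR2 fell in both comparisons as SPDEF did, and GPR160 and S100P also had negative log2 fold changes in both. All were picked by distance to SPDEF over the same 12 libraries, so the shared direction is no separate evidence of a link.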

How the data were processed

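Poly-A RNA-seq covered 12 libraries of SK-BR-3 cells and their resistant derivative, 3 in each of 4 groups, as named by the submitters' labels. FPKM values of 58735 genes were deposited by the authors as 2 tables, 1 for SK/EPI with SK-BR-3 and 1 for the siRNA groups, and all 12 columns were used. The submitters' processing notes name HISAT2 2.0.5, featureCounts 1.5.0-p3, DESeq2 1.16.1 and the build hg38, while the annotation is not given in the sources used here. All gene identifiers were those of GENCODE 29 (GRCh38). FPKM multiplied by the merged exon length in that release gave whole multiples of a step in each library for 100% of values (within 0.05 reads), from which reads were recovered. Reads on genes summed to 99.8% to 101% of the divisor behind the FPKM in SK-BR-3 and 92.8% to 95.4% in SK/EPI libraries. The range was 89.5% to 90.1% in SK/EPI-siNC and 90.4% to 90.7% in SK/EPI-siBCRP libraries. The FPKM scale thus differed slightly between the 2 lines. Its part in small differences between them, such as those of ELF3 and GATA3, was not tested.

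Each table was fitted alone in limma 3.58.1 (lmFit, eBayes with a trend, R 4.3.3) on log2(FPKM + 1) with the group as the only term. Genes needed 10 reads, at the median library size, in 3 or more libraries and 15 reads over the table. Benjamini-Hochberg adjustment was over all tested genes, with a threshold of 0.05. Fold changes are ratios of mean FPKM, with 3 reads as the floor for bounds. The scale understates changes of low genes. Shares of the AP-2 sum were compared by an exact permutation test. Promoters were RefSeq windows of 250 bases before each start, trimmed of GENCODE 29 exons for printing. Scripts were tested on simulated data, and Python 3.11.15, numpy 2.4.6, pandas 2.3.3 and matplotlib 3.10.9 were used.

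The 9 genes and the gene lists were chosen with earlier results of these data known. Named were the 9 genes, their neighbours, ERBB2 and ABCG2, from each list the 3 called genes that rose most and the 3 that fell most (at least 1 FPKM in a group, no overlap), and the 3 genes of likest pattern for those of the 9 that were tested in both tables and differed 2-fold or more; genes named outside this rule are marked, and some genes that the rule names are not reported here. Of 196 listed genes 1 symbol was not matched. Alternatives were other filters, scalings, thresholds and a pseudocount of 0.1, voom on recovered reads, the replicate block, leaving out each library, and reads in place of FPKM for the AP-2 shares.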

Additional observations from a re-analysis of the deposited data

How the results depend on the processing

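Values were recomputed for the 9 genes, the AP-2 shares and the counts over all genes, the 9 genes and all lists together. Of these, 309 were rated the same, 9 lost the threshold, 6 changed sign and 7 were counts that moved, which covers all of them. For a gene, the same meant an unchanged direction and side of the threshold, and for a share an unchanged direction only. For a count it meant a ratio to the main count within a set bound, so such counts could still differ. When calls also had to reach 1 in size on the log2 scale, SK/EPI versus SK-BR-3 left 2278 genes (1245 higher and 1033 lower) of 11854, 4 of the 9 genes and 44 list genes, and BCRP silencing left 67 genes (11 higher and 56 lower) of 6215, 0 of the 9 genes and 0 list genes. At an adjusted p-value under 0.01, 3853 genes (2020 higher and 1833 lower) were left after BCRP silencing. ELF3 between the lines lost its call after scaling without the mitochondrial chromosome (log2 fold change -0.066, adjusted p = 0.0580) and with voom (-0.046, adjusted p = 0.185), and the cause was not tested. ESR1 after BCRP silencing lost its call without a filter, at an unchanged -0.14 (adjusted p = 0.143), and when libraries were left out, with log2 fold changes from -0.17 to -0.11. TFAP2A after BCRP silencing, never called, changed sign under median-of-ratios scaling (0.00036) and with libraries left out (from -0.051 to 0.026), and its share of the AP-2 sum did so (from -0.0238 to 0.0615 percentage points) without SK/EPI-siBCRP replicate 1, at -0.0238. No scaling shifted the median of all genes by over 0.1, the largest shift being 0.09 with voom.

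Leaving out each library in turn left 11237 to 11547 genes and all 9 of the 9 genes called between the lines, and 5103 to 5403 genes and 5 to 6 of the 9 after BCRP silencing. The replicate numbers did not pair the libraries. Same-numbered libraries correlated at -0.04, -0.00 and -0.05 in the first table and 0.02, 0.06 and 0.01 in the second. With the replicate number as a block, 11656 and 5640 genes were called, of which 11459 and 5373 were also called without it. Of the 9 genes only ESR1 after BCRP silencing lost its call under the block (-0.14, adjusted p = 0.0611). With at most 9 reads of ESR1 and 22 of TFAP2B per SK-BR-3 library, depth limits both.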
